A study of Mus musculus with 9 samples.

Results

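The 10 genes described here build and turn over actin filaments: the actin isoforms Actb and Actg1, the monomer-binding proteins Pfn1 and Tmsb4x, the severing proteins Cfl1 and Dstn, the kinase Limk1, and Wasl, Actr2 and Actr3 of Arp2/3 nucleation. They were chosen by symbol, and all 10 were found among the 23309 symbols of the deposited expression table. All 10 were also among the 9788 genes with at least 1 FPKM (fragments scaled to transcript length and library) in at least 3 of the 9 libraries, which were the genes tested.

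The libraries were made from podocytes, the epithelial cells whose interdigitating foot processes cover the glomerular capillaries of the kidney. The mice were wildtype at 7 to 8 weeks of age, and carried the mTmG reporter, which a podocyte-directed Cre switches to membrane green fluorescent protein. GFP-positive cells were used from mice given PBS (3 libraries) and from mice 9 days and 14 days after the treatment abbreviated ADR (3 libraries each), all from the same strain. The series concerns RNA during podocyte injury. Whether each library is a different animal is not stated in the labels, and the p-values thus reflect library-to-library spread that may in part be technical. Y-linked transcripts, given below, differed between libraries of each ADR group, so those libraries were not all from the same animal.

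As background, actin filaments grow by addition of actin monomers at the barbed end and are renewed by severing and disassembly. Profilin feeds monomers to growing ends, thymosin beta 4 holds monomers in reserve, and cofilin and destrin sever older filaments unless LIM kinase has phosphorylated them. N-WASP, the product of Wasl, activates the Arp2/3 complex, which starts branches from existing filaments. Foot processes are shaped by actin bundles, and loss of foot processes in podocyte injury is known to go along with reorganised actin.

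The coding starts of the 2 actin isoforms are given because a read from one can match the other or a further copy. The first 60 coding bases are printed 5′ to 3′ from GENCODE M21 (GRCm38), with the bases that differ between the isoforms in capitals.
Actb: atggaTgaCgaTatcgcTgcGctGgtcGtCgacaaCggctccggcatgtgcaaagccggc
Actg1: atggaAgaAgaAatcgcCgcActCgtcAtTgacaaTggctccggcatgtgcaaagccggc
They differ at 9 of 60 bases, and over the whole coding sequence of 1125 bases they are 88.6% identical. Of all stretches of 36 bases in the coding sequence, 100% of those of Actg1 and 37.5% of those of Actb also occur in annotated transcripts of other genes (26 and 21 genes). How the authors' counting treated reads that match several places is not given in the sources used here, so the levels of both isoforms are uncertain. The same share was 67.8% for Actr3, 63.9% for Cfl1, 10.5% for Actr2 and 6.09% for Dstn. It was under 1% for Pfn1 (0.779%) and Limk1 (0.315%), and 0% for Tmsb4x and Wasl.

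The severing proteins Cfl1 and Dstn are close relatives, shown here because their levels differ so widely below. The capitals again mark the bases that differ, at 23 of 60 positions.
Cfl1: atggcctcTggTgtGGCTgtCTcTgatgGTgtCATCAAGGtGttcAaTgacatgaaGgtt
Dstn: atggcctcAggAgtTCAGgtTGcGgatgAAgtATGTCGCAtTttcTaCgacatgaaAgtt

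The table totals ran from 572787 to 723288 FPKM, and 8629 to 10474 genes reached 1 FPKM per library. Read counts were not used here, and the depth is unknown beyond an estimate of relative depth from the spacing of low values. Taking PBS replicate 2 as 1, it ran from 0.239 to 0.569 on day 14 and from 0.786 to 1.085 in all other libraries. The 12 podocyte markers checked, among them Nphs1, Synpo and Wt1, all reached 1 FPKM in every library. Their sum was 3003 FPKM in ADR_D14 replicate 1 and 9591 to 15710 FPKM elsewhere. Reaching 1 FPKM does not mean that their levels were kept. From PBS to day 14 the group mean went from 53.0 to 36.2 FPKM for Nphs1 and from 38.6 to 17.9 FPKM for Synpo. For Wt1 it went from 68.8 to 23.3 FPKM. Cdkn1c was the marker with a higher mean on day 14 (6539 FPKM) than in PBS (5337 FPKM), and the other markers had lower ones. The sum over 12 endothelial markers was 3304 FPKM in ADR_D9 replicate 3 (12 of 12 at 1 FPKM or more) and 799 FPKM in ADR_D14 replicate 1 (12 of 12), against 1.26 to 28.8 FPKM elsewhere. The sum over 12 leukocyte markers was 1421 and 2229 FPKM in the same 2 libraries and 7.29 to 83.1 FPKM elsewhere. In ADR_D14 replicate 1 the sum over 10 proximal tubule markers was 2587 FPKM, and that over 10 distal tubule and duct markers was 12436 FPKM. The latter sum was 572 FPKM in ADR_D9 replicate 3 and 2.66 to 49.8 FPKM in the other 7 libraries. The sum over 7 red cell markers was 548 FPKM in ADR_D9 replicate 1, 248 FPKM in ADR_D9 replicate 3, 66.5 FPKM in ADR_D14 replicate 1 and at most 5.45 FPKM elsewhere. The 4 Y-linked genes checked summed to 53.6 to 70.5 FPKM in the PBS libraries, ADR_D9 replicate 1 and ADR_D14 replicate 2, and to at most 1.06 FPKM in the other 4 libraries.

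On day 9 after ADR none of the 10 genes passed the test against PBS, while on day 14 Actb, Actg1 and Wasl fell. Between day 9 and day 14, Actb, Actg1, Wasl and Limk1 fell. No gene of the 10 passed as higher in any comparison. The test was limma, fitted to log2(FPKM + 1) of all 9 libraries, two-sided, with Benjamini-Hochberg adjustment over the 9788 genes and a threshold of 0.05. A relative log2 change below is the change less the median over the genes tested. The SE and p-values printed with it belong to the change before the median was subtracted, and the relative change itself was not tested. That median was 0.04 from PBS to day 9, −0.15 from PBS to day 14 and −0.22 from day 9 to day 14.

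The counts stand beside those of all genes. On day 9 limma called 0.0% of the 9788 genes in either direction, with 304 genes at an unadjusted p under 0.05, among them 2 of the 10. On day 14 against PBS, 10.7% of all genes passed as lower and 6.32% as higher, against 3 and 0 of the 10 genes. On day 14 against day 9, 9.98% passed as lower and 5.71% as higher, against 4 and 0 of the 10. Without overlap between the groups' libraries, 4 of the 10 genes were below all PBS libraries on day 14 (Actb, Actg1, Dstn and Wasl) and 4 were below all day 9 libraries (Actb, Actg1, Limk1 and Wasl). The shares of all genes were 23.8% and 24.6%. The median relative log2 change of the 10 genes was −0.38 from PBS to day 9, −0.49 from PBS to day 14 and −0.37 from day 9 to day 14. Those medians stand against 0 for all genes by construction, and 1, 3 and 4 of the 10 genes lay above it. The comparisons of both days with PBS share the PBS libraries.

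**Figure D1:**
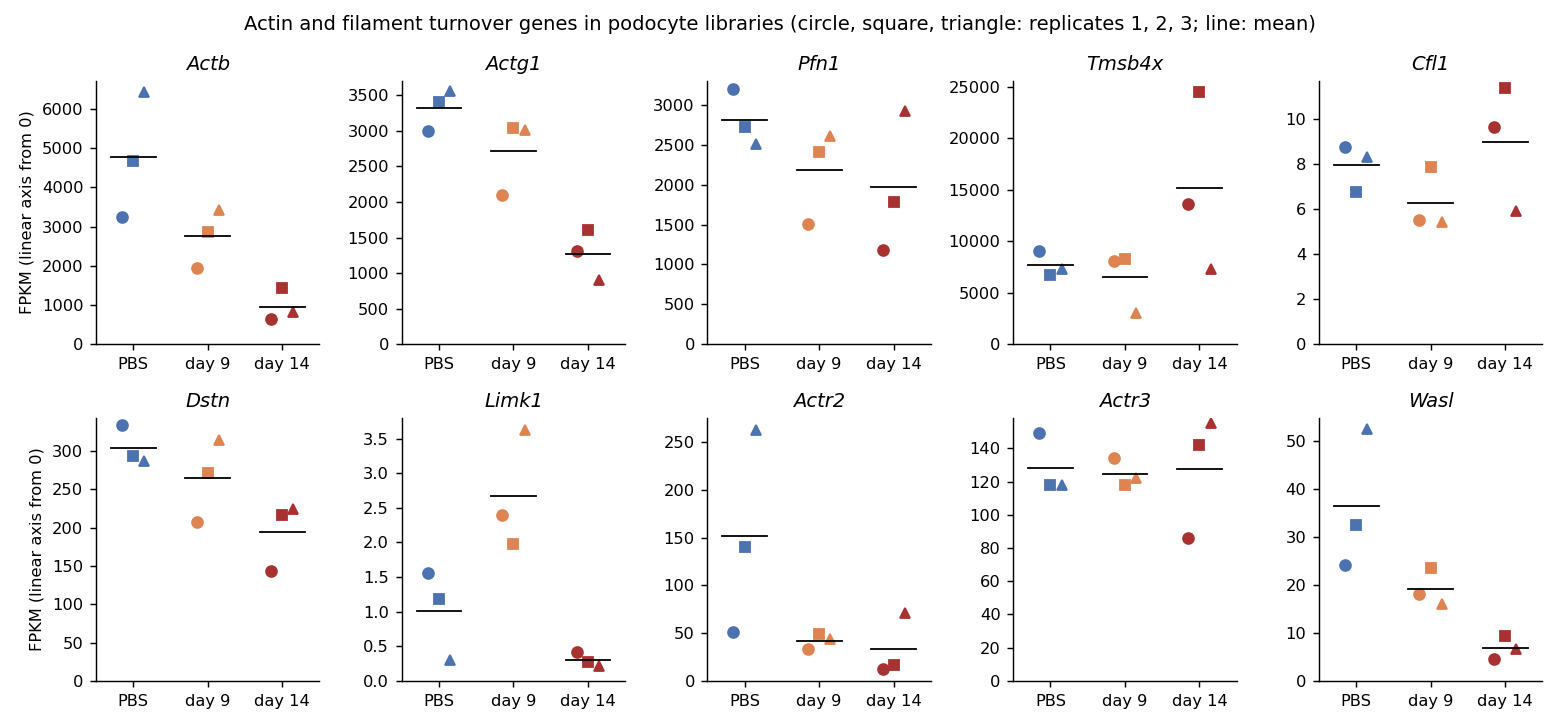
FPKM of the 10 genes in each library, on linear axes that start at 0, with the replicates as circle, square and triangle and the group mean as a line. Actb, Actg1 and Wasl lie lowest in all 3 day 14 libraries, while Tmsb4x spreads from 7290 to 24506 FPKM on day 14.

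Actb encodes beta-actin, the main cytoplasmic isoform. Its values were 3236, 4678 and 6423 FPKM in the PBS libraries, 1954, 2866 and 3430 FPKM on day 9, and 631, 1427 and 814 FPKM on day 14. Every day 14 library was below every other library, and the ranges of PBS and day 9 met only at PBS replicate 1 and ADR_D9 replicate 3. The group means were 4779 ± 1596, 2750 ± 745 and 958 ± 417 FPKM (SD, n = 3 each). The relative log2 change was −2.20 ± 0.41 (SE) on day 14 against PBS, with an adjusted p of 0.012 from limma. Before the median was subtracted the change was −2.35, so that FPKM + 1 stood at 0.196 of its PBS level. Against day 9 the relative change was −1.35 ± 0.41, with an adjusted p of 0.036 from limma. On day 9 against PBS it was −0.82 ± 0.41 and did not pass, with an adjusted p of 0.9999 from limma. By rank among the genes tested, Actb held places 22, 7 and 2 in the PBS libraries and places 195, 74 and 150 on day 14.

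Actg1 encodes gamma-actin, the second cytoplasmic isoform. It stood at 2997, 3411 and 3568 FPKM in the PBS libraries, 2099, 3037 and 3017 FPKM on day 9 and 1313, 1604 and 898 FPKM on day 14. As for Actb, the day 14 libraries were below all others. The means were 3325 ± 295, 2718 ± 536 and 1271 ± 354 FPKM (SD, n = 3 each). Relative to all genes, Actg1 fell by 1.28 ± 0.30 (log2, SE) from PBS to day 14, with an adjusted p of 0.020 from limma. From day 9 to day 14 it fell by 0.90 ± 0.30, with an adjusted p of 0.041 from limma. The day 9 change of −0.34 ± 0.30 did not pass, with an adjusted p of 0.9999 from limma.

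Both calls against PBS were lost without single PBS libraries. Without PBS replicate 2 the adjusted p rose to 0.070 for Actb and 0.095 for Actg1, and without PBS replicate 3 to 0.055 and 0.075. With a term for Y-linked transcripts they were 0.091 and 0.113, where no gene of the table passed. In the libraries with Y-linked transcripts, Actb was at 1427 FPKM in ADR_D14 replicate 2, at 1954 FPKM in ADR_D9 replicate 1 and at 3236 FPKM or more in the PBS libraries. In those without, it was at 631 and 814 FPKM on day 14 and at 2866 and 3430 FPKM on day 9. Without ADR_D9 replicate 3 and ADR_D14 replicate 1, the 2 marker-rich libraries, the changes against PBS were −1.92 for Actb and −1.30 for Actg1, and both passed (adjusted p = 0.017 and 0.023, limma). The calls against day 9 were less stable: they passed in 3 of 9 fits without 1 library for Actb and in 2 of 9 for Actg1. Each was lost without PBS replicate 2 and without each of the day 9 libraries, among others. Both were also lost without the 2 marker-rich libraries (−0.95 and −0.89, adjusted p = 0.113 and 0.080, limma). The same held with no filter, median-of-ratios scaling, the groups compared alone, and the length and GC trend removed. In bulk RNA a lower level per cell cannot be told apart from fewer cells with the transcript.

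The isoforms' ratio within a library does not depend on the scaling between libraries. Actg1 stood at 0.926, 0.729 and 0.555 times Actb in the PBS libraries, at 1.07, 1.06 and 0.880 on day 9 and at 2.08, 1.12 and 1.10 on day 14. By the listed FPKM, Actb was thus the higher isoform in all PBS libraries and Actg1 in all day 14 libraries. The day 9 libraries lay on either side of 1. Since the handling of reads that match several genes is not given, which isoform was higher is uncertain, as are their levels. The mean log2 ratio was −0.47 ± 0.37 for PBS, 0.00 ± 0.16 for day 9 and 0.46 ± 0.52 for day 14 (SD, n = 3 each). An exact permutation test over the 1680 arrangements of the 9 libraries gave p = 0.0214 for the 3 groups, and 0.0857 after Benjamini-Hochberg adjustment over the 4 ratios tested, which misses the threshold. A test of 3 libraries against 3 cannot go below 0.1. Without ADR_D14 replicate 1, the library with tubule markers, the day 14 minus PBS difference of the log2 ratio was 0.63 in place of 0.93 (exact permutation p = 0.0821), and without PBS replicate 3 it was 0.74 (p = 0.0821).

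**Figure D2:**
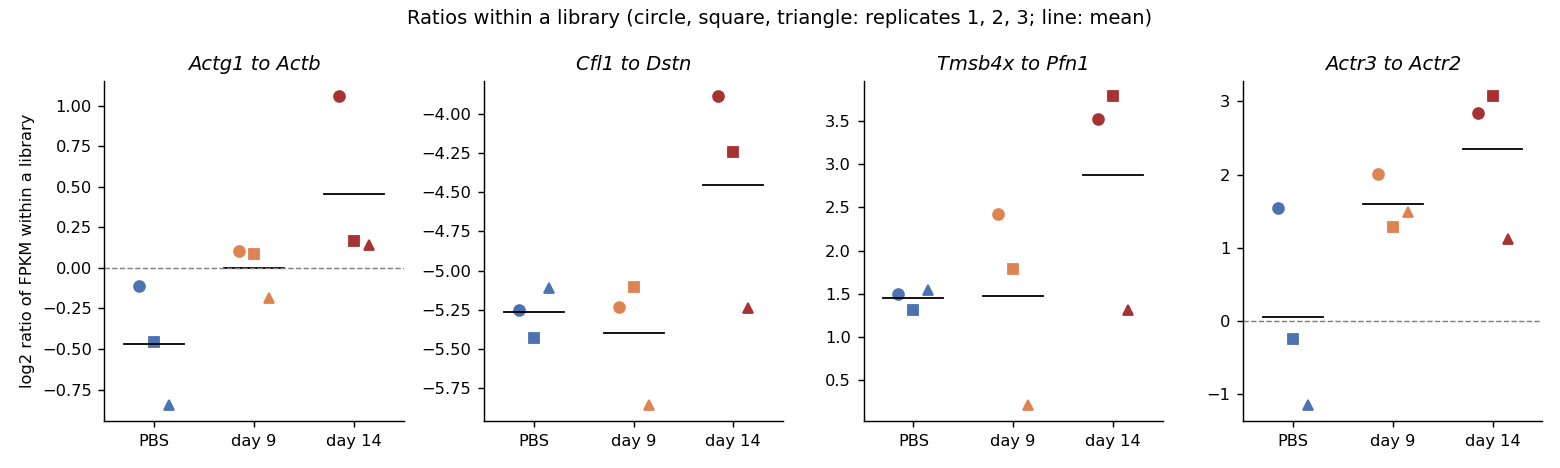
Log2 ratio of FPKM within each library for 4 pairs of genes, with the replicates as circle, square and triangle and the group mean as a line. The Actg1 to Actb ratio is below 0 in all 3 PBS libraries and above 0 in all 3 day 14 libraries, and the other 3 ratios overlap between PBS and day 14.

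The genes whose values followed those of Actb most closely were Wdr37, Kdm4a, Asb7, Gdi2 and Brd2, with Pearson's r from 0.973 to 0.986 over the 9 libraries. For Actg1 they were Cyb5d1, Fosb, Tfe3, Ppp2r1a and Bcam, with r from 0.965 to 0.981. The measure was taken on log2(FPKM + 1) less each library's median. It includes the differences between the groups, and with 9 libraries it only describes these data. By the same measure Actb had r = 0.951 with Actg1 and r = 0.963 with Wasl.

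Among the monomer-binding genes, no change passed the test. Pfn1 encodes profilin, which hands monomers to growing ends. It was at 3198, 2721 and 2504 FPKM in the PBS libraries, 1511, 2410 and 2615 FPKM on day 9 and 1186, 1779 and 2929 FPKM on day 14. The groups overlapped, and the lowest and one of the highest values were both on day 14. The relative log2 change was −0.43 ± 0.38 (SE) on day 9 and −0.46 ± 0.38 on day 14 against PBS, with adjusted p of 0.9999 and 0.295 from limma. Between day 9 and day 14 it was 0.01 ± 0.38, with an adjusted p of 0.736.

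Tmsb4x encodes thymosin beta 4, which keeps actin monomers from polymerising. It ranked first among all genes tested in all 3 PBS libraries, at 9040, 6775 and 7283 FPKM. Its values were 8100, 8329 and 3025 FPKM on day 9 and 13639, 24506 and 7290 FPKM on day 14. Day 9 replicate 3 was the lowest library, and replicates 1 and 2 of day 14 were above all others, while replicate 3 of day 14 lay within the PBS range. The means were 7699 ± 1188, 6485 ± 2998 and 15145 ± 8706 FPKM (SD, n = 3 each). The relative log2 change was 0.96 ± 0.55 (SE) on day 14 against PBS, with an adjusted p of 0.326, and 1.41 ± 0.55 against day 9, with an adjusted p of 0.162 (limma). The first of these was 0.07 once the trend with GC content and transcript length was removed, so its size depends on the processing. After quantile normalization it was −0.59. That setting gives every first-ranked gene the same, highest value, so it could not show a rise from PBS for Tmsb4x.

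The ratio of Tmsb4x to Pfn1 was 2.83, 2.49 and 2.91 in the PBS libraries, 5.36, 3.46 and 1.16 on day 9 and 11.5, 13.8 and 2.49 on day 14. Replicates given PBS were close together, while each ADR group held 1 library well below its others. Its exact permutation p over the 3 groups was 0.264, the same after adjustment.

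The severing genes stood at very different levels. Cfl1 encodes cofilin 1, the main non-muscle cofilin, and was at 8.77, 6.78 and 8.31 FPKM in the PBS libraries, 5.51, 7.87 and 5.42 FPKM on day 9 and 9.65, 11.4 and 5.93 FPKM on day 14. Dstn encodes destrin, its relative with like activity. Dstn was at 334, 293 and 287 FPKM in the PBS libraries, 207, 271 and 315 FPKM on day 9 and 143, 216 and 224 FPKM on day 14. FPKM is scaled to length, and Cfl1 was at 0.0172 to 0.0675 of Dstn across the 9 libraries. The coding sequence of Cfl1 shares 63.9% of its 36-base stretches with other annotated genes, and how such reads were counted was not tested here.

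For Cfl1 the groups overlapped throughout, with relative log2 changes of −0.35 ± 0.29 on day 9 and 0.27 ± 0.29 on day 14 against PBS (SE; adjusted p = 0.9999 and 0.787, limma). The 3 day 14 values of Dstn were below all PBS values. Its relative log2 change there was −0.52 ± 0.25 and did not pass, with an adjusted p of 0.101 from limma. The log2 ratio of Cfl1 to Dstn had means of −5.27 ± 0.16, −5.40 ± 0.40 and −4.46 ± 0.70 in PBS, day 9 and day 14 libraries (SD, n = 3 each), with an exact permutation p of 0.154 and an adjusted p of 0.205.

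Limk1 encodes LIM kinase 1, which inactivates cofilin by phosphorylation. It was low throughout, at 1.56, 1.19 and 0.299 FPKM in the PBS libraries, 2.40, 1.97 and 3.63 FPKM on day 9 and 0.420, 0.267 and 0.216 FPKM on day 14. All day 9 libraries were above all others, and PBS replicate 3 lay among the day 14 values. From day 9 to day 14 its relative log2 change was −1.26 ± 0.29 (SE), with an adjusted p of 0.016 from limma. On day 9 against PBS it was 0.86 ± 0.29, with an unadjusted p of 0.0143 and an adjusted p of 0.9999. Limk1 was the gene of the 10 whose day 9 libraries were all above PBS, as they were for 6.77% of all genes. Against PBS on day 14 it was −0.43 ± 0.29, with an adjusted p of 0.195. The call between the days was lost without ADR_D9 replicate 3, the library with endothelial markers (adjusted p = 0.060, limma), and with the length and GC trend removed (0.093), where the change was −0.75. It passed without both marker-rich libraries (−1.17, adjusted p = 0.042). At these levels, 1 FPKM of pseudocount makes the log2 changes smaller than the ratios of the values.

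**Figure D3:**
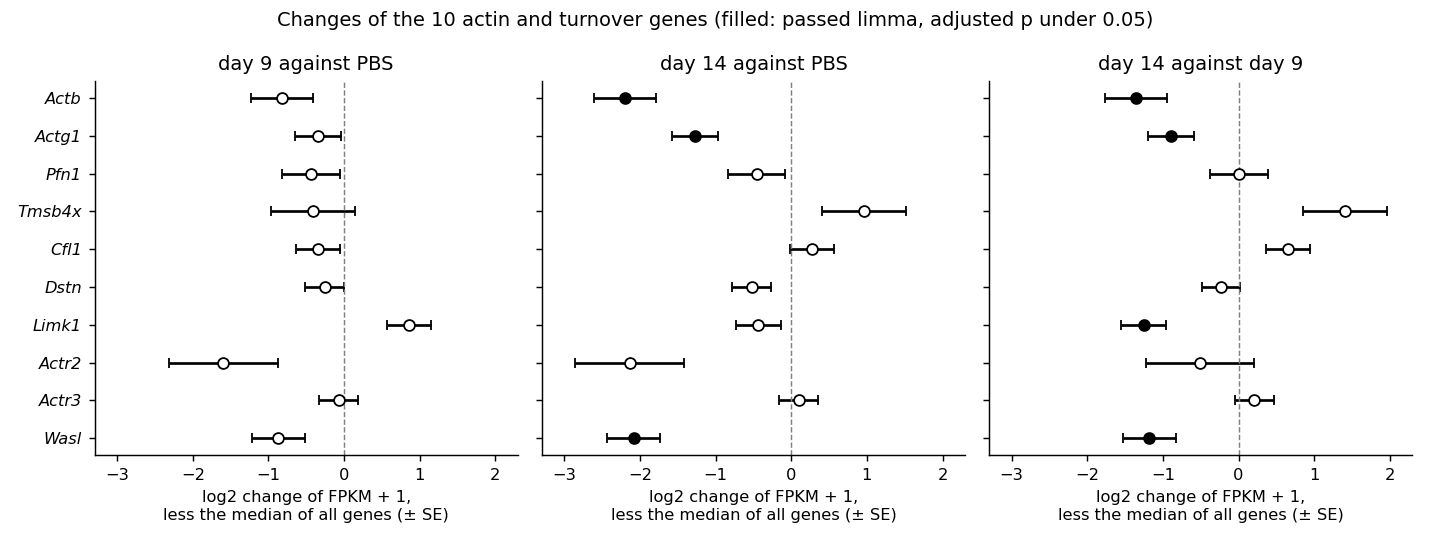
Log2 change of FPKM + 1 of each of the 10 genes, less the median over the genes tested, with bars of 1 SE from the limma fit, for the 3 comparisons. Filled points passed the test: none on day 9, Actb, Actg1 and Wasl on day 14 against PBS, and those with Limk1 on day 14 against day 9.

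Wasl, the N-WASP gene, had values of 24.1, 32.6 and 52.5 FPKM in the PBS libraries, 18.1, 23.5 and 16.0 FPKM on day 9 and 4.47, 9.42 and 6.64 FPKM on day 14. The 3 groups did not overlap: each day 9 library was below each PBS library, and each day 14 library was below each day 9 library. Day 9 libraries were below all PBS libraries for Wasl and Actr2 among the 10 genes and for 6.63% of all genes. Wasl fell by 2.08 ± 0.35 (relative log2 change, SE) from PBS to day 14, with an adjusted p of 0.011 from limma. It fell by 1.18 ± 0.35 from day 9 to day 14, with an adjusted p of 0.031. On day 9 the change of −0.87 ± 0.35 had an unadjusted p of 0.0425 and an adjusted p of 0.9999. The day 14 call against PBS was lost without PBS replicate 2 (adjusted p = 0.066) and with the Y-linked term (0.084). The call against day 9 passed in 4 of 9 fits without 1 library, and was lost without PBS replicate 2, any 1 of the day 9 libraries or ADR_D14 replicate 3. It was also lost without both marker-rich libraries (−1.09, adjusted p = 0.068). The same held with no filter (0.065), median-of-ratios scaling (0.068), quantile normalization (0.091), the groups compared alone (0.067) and the length and GC trend removed (0.112). The call against day 9 thus passed in 7 of 13 settings other than leaving out a library. 

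The promoters of Wasl and Actg1 are shown because these genes fell in both comparisons with day 14 and have an entry in the RefSeq promoter table (GRCm38.p6, 250 bases before the annotated start). They run 5′ to 3′ on the gene's strand, with capitals for a CArG box, the element bound by serum response factor, in either orientation.
Actg1, chr11:120348496-120348745, minus strand: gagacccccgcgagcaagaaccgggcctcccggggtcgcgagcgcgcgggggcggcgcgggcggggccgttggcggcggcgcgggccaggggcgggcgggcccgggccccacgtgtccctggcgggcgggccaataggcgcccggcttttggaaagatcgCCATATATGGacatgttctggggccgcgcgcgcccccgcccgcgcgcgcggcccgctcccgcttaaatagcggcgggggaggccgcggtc
Wasl, chr6:24664996-24665245, minus strand: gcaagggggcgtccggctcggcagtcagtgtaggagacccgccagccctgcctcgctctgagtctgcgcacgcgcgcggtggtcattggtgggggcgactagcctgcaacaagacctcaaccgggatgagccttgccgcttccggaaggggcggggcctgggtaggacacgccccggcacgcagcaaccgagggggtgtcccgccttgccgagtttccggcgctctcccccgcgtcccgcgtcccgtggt
The box in Actg1 begins 90 bases before the start. It was the only CArG box in the 10 promoters matched for 9 of the 10 genes, and 1.47% of 32851 RefSeq promoters hold one. Actb had no promoter entry, so neither this count nor those that follow cover it. The GC box GGGCGG was in 8 of the 10 promoters and in 32.7% of all, CCAAT in 6 of the 10 and 33.8% of all, and TATAAA in 0 of the 10 and 12.4% of all, each on both strands. Such matches describe the letters of these windows, and no binding was measured.

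Actr2 and Actr3 encode the actin-related subunits that form the base of a new branch. Actr2 was at 51.3, 140 and 263 FPKM in the PBS libraries, 33.3, 48.8 and 43.5 FPKM on day 9 and 12, 17 and 71.3 FPKM on day 14. The PBS libraries spread widely, the day 9 libraries lay close together below them, and ADR_D14 replicate 3 lay within the PBS range. The relative log2 change was −1.60 ± 0.72 on day 9 and −2.14 ± 0.72 on day 14 against PBS (SE), with adjusted p of 0.9999 and 0.060 from limma. The day 14 change passed without PBS replicate 1 (−2.78, adjusted p = 0.039), without ADR_D14 replicate 3 (−2.89, adjusted p = 0.022) and in 3 other settings.

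Actr3 was at 149, 118 and 118 FPKM in the PBS libraries, 134, 118 and 122 FPKM on day 9 and 85.8, 142 and 155 FPKM on day 14. Its groups overlapped in every comparison, and its relative log2 change on day 14 against PBS was 0.10 ± 0.26 (SE), with an adjusted p of 0.913 from limma. The ratio of Actr3 to Actr2 was 2.91, 0.844 and 0.449 in the PBS libraries, 4.01, 2.42 and 2.81 on day 9 and 7.17, 8.38 and 2.18 on day 14. PBS replicates 2 and 3 were the libraries in which Actr2 was the higher. The exact permutation p over the 3 groups was 0.1, and 0.2 after adjustment over the 4 ratios.

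Other genes of the pathway were taken from lists by role, with 86 genes in all, of which 55 were tested. On day 14 against PBS, 4 of the 55 passed as higher and 3 as lower, against 6.32% and 10.7% of all genes. The median relative log2 change of the 55 was 0.01. On day 14 against day 9, 5 passed as higher and 3 as lower, against 5.71% and 9.98% of all genes, with a median of 0.03. On day 9 none passed in limma, and the median was −0.05. Each of these counts can be read against the shares of all genes given above.

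Of 8 other Arp2/3 subunits tested, Arpc2 and Arpc5 passed as higher on day 14 against PBS and none as lower. Among all genes, 6.32% passed as higher and 10.7% as lower. On day 14, 4 subunits (Arpc1b, Arpc2, Arpc4 and Arpc5) lay above all PBS libraries, as did 15.6% of all genes. The list was not tested as a set. Arpc2, a subunit that anchors the complex on the mother filament, was at 112, 71.5 and 98.6 FPKM in the PBS libraries, 83.6, 87.7 and 67.9 FPKM on day 9 and 160, 176 and 191 FPKM on day 14. The day 14 libraries were above all others and close together. Its relative log2 change was 1.06 ± 0.23 against PBS and 1.35 ± 0.23 against day 9, with adjusted p of 0.030 and 0.017 from limma. Arpc5, a small peripheral subunit, was at 1.79 to 2.12 FPKM in the PBS libraries, 1.23 to 2.08 FPKM on day 9 and 4.04, 4.06 and 6.69 FPKM on day 14. Its relative log2 changes were 1.13 ± 0.26 and 1.29 ± 0.26, with adjusted p of 0.035 and 0.028. With the length and GC trend removed neither passed (0.35, adjusted p = 0.418 and 0.62, adjusted p = 0.194 against PBS). Against PBS, Arpc2 passed in 4 of 9 and Arpc5 in 3 of 9 fits without 1 library, with the highest adjusted p without PBS replicate 2 (0.132 and 0.130). Both were lost at a common total (0.065 and 0.058) and in fits of the groups compared alone (0.076 and 0.082), and so was Arpc2 with quantile normalization (0.064). Against day 9, Arpc2 passed in 7 of 9 fits without 1 library and Arpc5 in 4 of 9. With the length and GC trend removed the changes against day 9 were 0.56 and 0.725, and neither passed (adjusted p = 0.204 and 0.151, limma). Both calls against day 9 were also lost with the groups compared alone (0.054 and 0.088), and that of Arpc5 with no filter (0.073).

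Of the 9 tested activators of Arp2/3 other than Wasl, Brk1 passed as lower on day 14 and none passed as higher. Among all genes, 10.7% passed as lower against PBS and 9.98% against day 9. Brk1 encodes the smallest subunit of the WAVE complex. It was at 324, 301 and 359 FPKM in the PBS libraries, 219, 332 and 308 FPKM on day 9 and 43.6, 107 and 64.8 FPKM on day 14. The day 14 libraries were far below all others. Its relative log2 change was −2.12 ± 0.33 against PBS and −1.83 ± 0.33 against day 9, with adjusted p of 0.0099 and 0.011 from limma. The call against PBS was lost without PBS replicate 2 (adjusted p = 0.066). Cyfip1, another subunit of that complex, was below all PBS libraries on day 14 but did not pass (−0.83 ± 0.30, adjusted p = 0.052).

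Among 4 tested capping and pointed-end genes, both that rose belong to the capping protein, which blocks barbed ends. Of all genes, 6.32% passed as higher against PBS and 5.71% against day 9. Capza2, an alpha subunit, was at 46.2, 37.2 and 36.6 FPKM in the PBS libraries, 35.7 to 43.4 FPKM on day 9 and 107, 83.4 and 105 FPKM on day 14. Capzb, the beta subunit, was at 5.37, 4.35 and 3.94 FPKM in the PBS libraries, 3.09 to 4.13 FPKM on day 9 and 21.0, 8.58 and 11.8 FPKM on day 14. For both genes every day 14 library was above every other library. The relative log2 change against PBS was 1.42 ± 0.20 for Capza2 and 1.48 ± 0.33 for Capzb, with adjusted p of 0.011 and 0.028 from limma. Against day 9 they were 1.54 ± 0.20 and 1.85 ± 0.33, with adjusted p of 0.010 and 0.017. Without PBS replicate 2 both calls against PBS were lost (adjusted p = 0.069 and 0.115), as they were without PBS replicate 3 (0.053 and 0.095). The call for Capzb was also lost without PBS replicate 1 (0.051), with no filter (0.054), with the groups compared alone (0.077) and with the length and GC trend removed (0.056). Its call against day 9 was lost without ADR_D9 replicate 1 (0.060), without ADR_D9 replicate 3 (0.059) and with the groups compared alone (0.062).

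**Figure D4:**
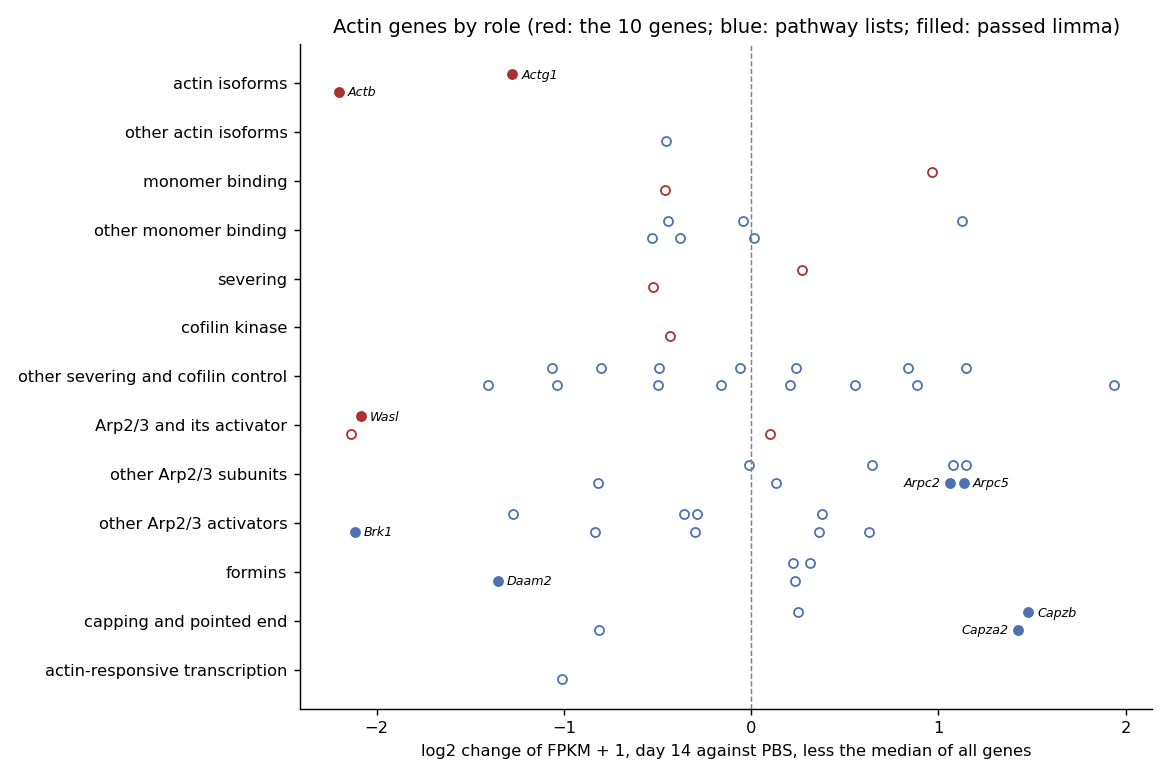
Relative log2 change of FPKM + 1 on day 14 against PBS for the 10 genes (red) and the tested genes of the pathway lists shown (blue), 1 row per role. Filled points passed limma and are named: Actb, Actg1, Wasl, Brk1 and Daam2 lower, and Arpc2, Arpc5, Capza2 and Capzb higher.

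Arhgdia was at 398, 430 and 398 FPKM in the PBS libraries, 327, 364 and 285 FPKM on day 9 and 102, 203 and 174 FPKM on day 14, with no overlap between any of the 3 groups. It fell against PBS (−1.26 ± 0.28, adjusted p = 0.016, limma) and against day 9 (−0.86 ± 0.28, adjusted p = 0.034). The first call was lost without PBS replicate 2 (adjusted p = 0.082) and without PBS replicate 3 (0.059). That call was also lost with the groups compared alone (0.054), the length and GC trend removed (0.065) and the Y-linked term (0.113). The call against day 9 passed in 3 of 9 fits without 1 library. It was also lost with no filter (adjusted p = 0.064), median-of-ratios scaling (0.111), the groups compared alone (0.095) and the length and GC trend removed (0.233). Daam2 was the formin that passed of 4 tested, as lower against PBS, where 10.7% of all genes did. It was at 2.90, 7.50 and 12.6 FPKM in the PBS libraries and 1.20, 1.90 and 2.14 FPKM on day 14. Its call (−1.35 ± 0.44, adjusted p = 0.047) held in 1 of 9 fits without 1 library, that without PBS replicate 1. PBS replicate 1 was close to the day 14 values.

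Of 15 other severing and cofilin-control genes tested, none passed against PBS in limma on day 14. Against day 9, 1 rose and 1 fell, where 5.71% and 9.98% of all genes did. Cfl2, the muscle-type cofilin, was at 31.1, 22.4 and 20.5 FPKM in the PBS libraries, 19.9, 21.7 and 12.7 FPKM on day 9 and 47.7, 39.1 and 37.2 FPKM on day 14. In every library Cfl2 was thus listed above Cfl1. Its day 14 libraries were above all others, with a relative log2 change of 1.39 ± 0.27 against day 9 (adjusted p = 0.025, limma) and 0.88 ± 0.27 against PBS (adjusted p = 0.092). The first was lost without ADR_D9 replicate 1 (adjusted p = 0.061), ADR_D9 replicate 3 (0.079) or PBS replicate 2 (0.054). It was also lost without both marker-rich libraries (0.068), with the length and GC trend removed (0.067) and with the groups compared alone (0.069). Pak1, a kinase that activates LIM kinase, was at 181, 87.7 and 88.7 FPKM on day 9 and 43.6, 64.6 and 38.3 FPKM on day 14. It fell between the days (−1.0 ± 0.34, adjusted p = 0.044, limma), a call that held in 1 of 9 fits without 1 library, that without ADR_D14 replicate 2. Without ADR_D9 replicate 1, its highest library, the change was −0.64 (adjusted p = 0.110).

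Smooth muscle actin and the transcription factor of actin-responsive genes did not pass in any comparison. Acta2, the smooth muscle isoform and a marker of mesangial and smooth muscle cells, was at 19.6, 4.14 and 0.869 FPKM in the PBS libraries, 2.56, 7.13 and 73.9 FPKM on day 9 and 3.69, 4.23 and 1.30 FPKM on day 14. Its highest value was in ADR_D9 replicate 3, where the 10 mesangial and smooth muscle markers summed to 436 FPKM against 34.0 to 137 FPKM elsewhere; its part in the values of other genes was not tested. Srf, the serum response factor gene, was at 12, 8.40 and 2.0 FPKM in the PBS libraries, 6.29, 11.2 and 7.84 FPKM on day 9 and 1.08, 4.80 and 1.73 FPKM on day 14. Its day 14 libraries were below all day 9 libraries and overlapped PBS only through PBS replicate 3. For Srf the relative log2 change was −1.01 ± 0.58 against PBS and −1.31 ± 0.58 against day 9, with adjusted p of 0.195 and 0.104 from limma. None of the 6 tested genes of the other monomer-binding list passed in limma in any comparison.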

How the data were processed

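RNA was measured in 9 libraries, 3 in each of 3 groups. The authors deposited 1 table of FPKM with a column per library, and per the submitters' processing notes Bowtie 0.12.7, Cufflinks and mm9 were used. Neither their roles nor the annotation, strand setting or handling of reads with several matches is given in the sources used here. Per the labels' protocols, a Ribo-Zero kit removed ribosomal RNA. Of 23813 rows with 23309 symbols, 260 symbols stood on several rows, of which the row of highest mean was used. Values were tested as deposited with limma 3.58.1 (R 4.3.3, variance trend) on log2(FPKM + 1), filtered at 1 FPKM in 3 libraries, which understates changes of low genes. The FPKM values carry no counts, so no counting interval can be given.

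The 10 genes, lists, markers and alternatives were chosen with earlier results of these data known. All 10 genes are named, with up to 4 genes per pathway list by smallest p, Acta2, Arpc2, Srf and Cfl2, and the 5 genes most like Actb and Actg1. Not every gene of this rule is printed. Diaph1, Diaph2 and Diaph3 stand in the table under older symbols. Transcript lengths and GC shares came from GENCODE M21 (GRCm38) for 99.4% of genes tested, a later build than mm9. Promoters came from RefSeq (GRCm38.p6). Some items are not reported here.

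Alternatives were a pseudocount of 0.1, no filter or one of 5 FPKM, median-of-ratios, quantile and common-total scaling, no variance trend, summed rows, the groups compared alone, a replicate block, a term for Y-linked transcripts, removal of ADR_D9 replicate 3 and ADR_D14 replicate 1, which hold markers of other kidney cells, removal of a length and GC trend, and each library left out.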

Additional observations from a re-analysis of the deposited data

Results flagged for a closer look

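For 4 of the 10 genes the change against PBS differed between day 14 and day 9, by the limma test of that difference, in which the shared PBS libraries cancel. The difference was −1.353 for Actb, −0.899 for Actg1, −1.257 for Limk1 and −1.182 for Wasl on the relative log2 scale. Limk1 is the gene of these 4 whose day 9 libraries were above all PBS libraries. The tests and libraries on which each call rests are given above, and no cause was tested.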

How the results depend on the processing

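Of the 10 genes, 3 passed on day 14 against PBS and 4 against day 9. The first count was 5 with a common total and 0 with the term for Y-linked transcripts, and 0 to 4 with 1 library left out, with 0 without PBS replicate 2 and 1 without PBS replicate 3. The second was 1 with no filter, with median-of-ratios scaling, with the groups compared alone and without the 2 marker-rich libraries (ADR_D9 replicate 3 and ADR_D14 replicate 1). It was 2 with the Y-linked term, 0 with the length and GC trend removed, and 0 to 4 with 1 library left out. On day 9 the count was 0 throughout. With the replicate number as a replicate block the counts were 0 on day 9, 4 on day 14 against PBS and 3 against day 9; Actr2 was gained in the first of the latter (adjusted p = 0.032, limma) and Actg1 was lost in the second (0.071). Of the pathway genes, Arpc2 (0.058), Arpc5 (0.069) and Daam2 (0.059) against PBS and Arpc5 (0.060) and Pak1 (0.078) against day 9 were lost under it. Libraries with the same number share only the number: the correlations of their deviations ran from −0.265 to 0.431.

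Over all genes on day 14 against PBS, 619 rose and 1051 fell; these were 818 and 773 when scaled by median of ratios, 710 and 755 when quantile normalized, 414 and 1679 at a common total, 298 and 286 with the length and GC trend removed, 169 and 301 with the groups compared alone, 336 and 661 with no filter, 51 and 99 without PBS replicate 3, and 0 and 0 without PBS replicate 2 or with the Y-linked term (2349 and 2282 at an unadjusted limma p under 0.05). Against day 9, 559 rose and 977 fell; these were 805 and 624, 677 and 535, 393 and 1832, 276 and 162, 75 and 187 and 308 and 573 under the first 6 of those settings. Actb and Wasl passed against PBS in 12 of 13 settings other than leaving out a library, and Actg1 in 10.

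The difference of the log2 Actg1 to Actb ratio between day 14 and PBS was 0.63 (exact permutation p = 0.105) without the 2 marker-rich libraries, and 0.63 to 1.11 with 1 library left out. That of Cfl1 to Dstn was 1.18 (exact permutation p = 0.0286) with the length and GC trend removed and 0.53 to 1.20 with 1 library left out. That of Actr3 to Actr2 ran from 1.70 to 3.04 with 1 library left out, with the highest value without PBS replicate 1.

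Some changes turned sign, none of which had passed. Most were small, but Tmsb4x on day 14 (0.96) and Acta2 on day 9 (1.12, both against PBS) were not. The sign for Tmsb4x under quantile normalization was fixed by its first rank in every PBS library. With quantile normalization the changes that turned sign were 0.012 for Actg1 and 0.034 for Actr3 on day 9. On day 14 they were −0.59 for Tmsb4x and −0.16 for Actr3 against PBS, and −0.46 for Pfn1 and −0.16 for Actr3 against day 9. With the Y-linked term they were 0.28 for Tmsb4x and 0.071 for Actr3 on day 9 and −0.019 for Pfn1 between the days. Without the 2 marker-rich libraries they were 0.089 for Tmsb4x and −0.129 for Acta2 on day 9, and 0.078 for Dstn between the days. With the length and GC trend removed, Actr3 was at −0.17 against PBS and −0.12 against day 9. With no filter, Actr3 was at −0.038 against PBS and Pfn1 at −0.19 against day 9, and with a common total Pfn1 was at −0.059. With 1 library left out the ranges were −0.69 to 0.089 for Tmsb4x, −0.148 to 0.062 for Actr3, −0.13 to 2.07 for Acta2 and −0.32 to 0.78 for Srf on day 9. They were −0.063 to 0.38 for Actr3 and −1.25 to 0.44 for Acta2 on day 14 against PBS, and −0.33 to 0.33 for Pfn1 between the days. The causes were not tested. By the estimate from low values, depth was lowest on day 14.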

Other observations

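Gelsolin and Rac1 stood outside the calls but showed wide spreads between libraries, and they were chosen after their values were seen. Gsn, a calcium-activated severing and capping protein, was at 3633, 4639 and 3738 FPKM in the PBS libraries, 2669, 2684 and 1383 FPKM on day 9 and 376, 2117 and 3121 FPKM on day 14. Every ADR library was below every PBS library, with relative log2 changes of −0.93 ± 0.71 on day 9 and −1.41 ± 0.71 on day 14 (SE), which did not pass (adjusted p = 0.9999 and 0.158, limma). Rac1, a switch that drives branched actin at the cell edge, was at 29.2 FPKM in PBS replicate 3 and between 235 and 465 FPKM in the other 8 libraries. The same library held the highest Actb, Actg1, Actr2 and Wasl of all 9.

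Of the muscle isoforms, Acta1 was at 0.896 to 1.04 FPKM in the PBS libraries and ADR_D9 replicates 2 and 3 and at 0.038 to 0.365 FPKM in the other 4 libraries, and it was not tested. Actc1 was listed at 0 or up to 0.303 FPKM, and Actg2 at 0 in 8 libraries and 1.47 FPKM in PBS replicate 2. Some genes of the lists were high in the libraries with leukocyte markers. Arhgdib, a leukocyte relative of Arhgdia, was at 134 FPKM in ADR_D9 replicate 3 and 624 FPKM in ADR_D14 replicate 1 against 0.76 to 3.47 FPKM elsewhere. Gmfg was at 54.5 and 61.3 FPKM there against 0.0413 to 1.69 FPKM elsewhere.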
